A study of Mus musculus with 3 samples.

Results

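The outermost and the innermost tissue of the mouse main olfactory bulb were compared on spatial transcriptomics arrays. The outer side was the olfactory nerve layer (ONL). The inner side, called the core here, pooled 2 regions, named Rostral Migratory System (RMS) and Ependymal Cell Zone (E) in the region tables. Members were all array spots that the deposited tables assign to these regions, found by their pixel position. The ONL held 238377 spots, with 78074, 81975 and 78328 in sections 1, 2 and 3. The core held 396982 spots, with 194967, 106852 and 95163 in the same sections. Of the core spots, 354341 lay in E and 42641 in RMS. Together they made up 635359 of the 2250425 spots of the series.

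Both sides came from the same 3 coronal sections, so each section is a pair of 1 ONL and 1 core sum. All sections were from adult C57BL/6J mice aged 12 weeks, and no treatment or genetic change is given. Which animal each section came from is not stated, so p-values speak for these sections and not for animals. They rest on how the difference between ONL and core varied over the sections, with a spread pooled over genes. A small p-value therefore does not show that the sections of that gene agreed, as Scd1 below makes plain. Each spot captures poly(A) RNA from a small patch of tissue, and the sums are bulk measurements. Fewer cells of a type and less RNA per cell cannot be told apart in them. The sources used here do not say whether gene expression helped to draw the regions.

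The ONL carries the axons of olfactory sensory neurons from the nose to the glomeruli. These axons are unmyelinated and run in bundles wrapped by olfactory ensheathing glia, which share molecules with astrocytes and with Schwann cells. The core is the deep end of the bulb, where newborn neurons arrive along the rostral migratory stream and where myelinated axons run beneath the granule cell layer. Granule cells, the most common inhibitory neurons of the bulb, lie around it.

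The ONL sums held 15526, 70661 and 54916 counts in sections 1, 2 and 3, against 104364, 92478 and 61151 in the core. RMS gave 16285, 5162 and 1456 of the core counts, so that E weighed most in every section. In the ONL, 19.9, 86.2 and 70.1 counts fell on 100 spots in sections 1 to 3, against 53.5, 86.5 and 64.3 in the core. The mean was 58.7 ± 34.6 in the ONL and 68.1 ± 16.8 in the core (SD, n = 3 sections each). That difference was smaller than the spread between sections (exact sign-flip test over sections, two-sided p = 0.75, where 0.25 is the smallest possible). Section 1 stood apart with its shallow ONL, in which 1 count weighs far more than elsewhere once levels are scaled to counts per 1000000 counts of the same sum (CPM). Below, a gene at 0 counts can still have up to 193 CPM in the ONL of section 1 and up to 28.7 CPM in its core, the level of 3 counts, and such limits cover counting error only.

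At the gene level, 1481 genes had enough counts to be tested. A total of 79 genes were higher in the ONL (5.33% of those tested) and 52 were lower (3.51%), together 8.85%, at an adjusted p under 0.05. The test was edgeR's quasi-likelihood test with the section in the model and Benjamini-Hochberg adjustment. The median fitted log2 fold change of ONL over core was -0.03 over all tested genes. With library sizes in place of TMM scaling that median was -0.16, and 63 genes were higher and 62 lower. The 79 higher genes had fold changes of 0.55 to 4.31 with a median of 1.37, and 67 of them were higher in the ONL of each of the 3 sections. The 52 lower genes lay between -2.22 and -0.64 with a median of -1.20, and 49 were lower in all 3 sections. Every ONL section lay above every core section for 38 of the higher genes, and for 4.73% of all tested genes. Every ONL section lay below every core section for 30 of the lower genes, and for 10.1% of all tested genes.

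**Figure D1:**
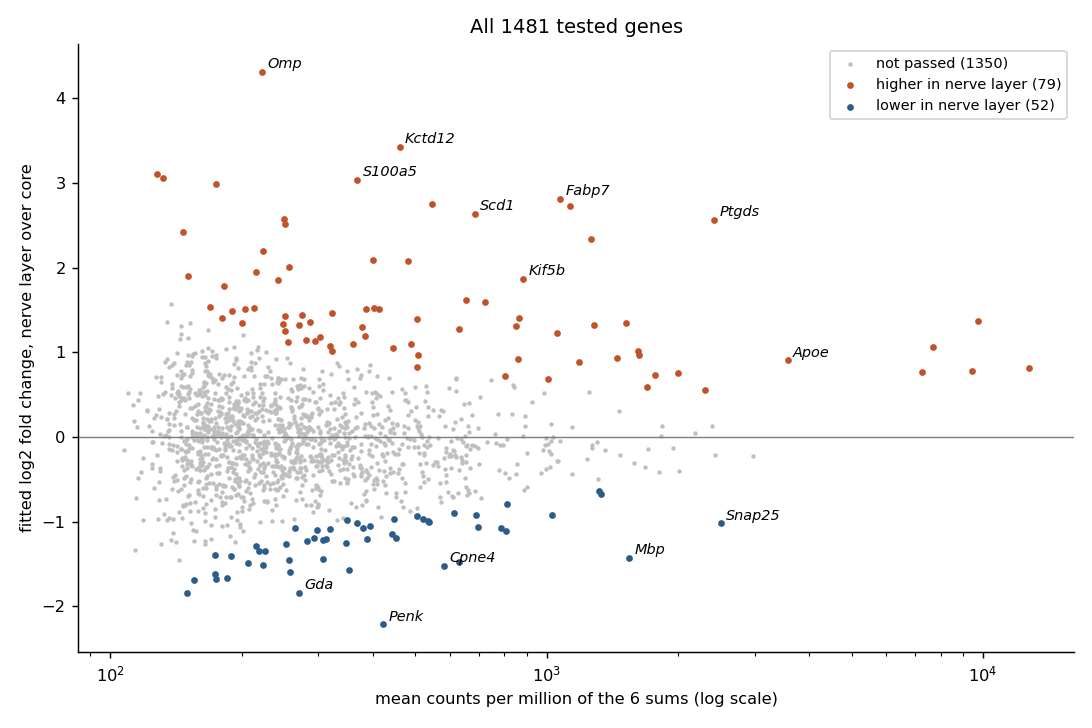
Fitted log2 fold change of ONL over core (vertical axis) against the mean CPM of the 6 sums (horizontal axis, log scale) for the 1481 tested genes, 1 point a gene, with the 79 genes higher and the 52 genes lower in the ONL coloured. Omp, at 4.31, is the topmost gene and Penk, at -2.22, the lowest.

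How many genes passed depended on the sections. Without section 1, which had the shallow ONL, 128 genes were higher and 95 lower. Without section 2, 35 were higher and 10 lower, and without section 3, 36 were higher and 4 lower. Taking the section out of the model left 7 genes higher (Omp, Kctd12, S100a5, Fabp7, Igfbp5, Apod and Ptgds) and Penk alone lower. DESeq2, with the section in its model, called 36 genes higher and 6 lower. Of 67 called genes named in this text that it gave an adjusted p, 46 missed the threshold. The sums of 1 section shared their deviations from the group means, with correlations over genes of 0.617, 0.466 and 0.355 in sections 1 to 3. The ONL of section 2 and the core of section 3 correlated at 0.424, and the ONL of section 3 and the core of section 2 at 0.417, both above the value within section 3. All pairs of section 1 with another section were negative. Deviations from a mean of 3 sections cancel out for each gene, so negative values between sections are partly built in.

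The region labels were first set against their own markers. Fabp7, a fatty acid binding protein of ensheathing and radial glia, had 1095, 2392 and 2076 CPM in the ONL, against 220.4, 346 and 311 CPM in the core. Apod, a secreted lipocalin that carries lipids, had 2061, 2293 and 1457 CPM in the ONL, against 335, 292 and 343 CPM in the core. Mbp, a protein that compacts the myelin sheath, had 1675, 354 and 619 CPM in the ONL, against 3219.5, 1719 and 1668 CPM in the core. The ONL was far above the core in every section for both glial genes. Mbp was lower in the ONL in each section, but the groups overlapped, because the ONL of section 1 was about level with the core of sections 2 and 3. Fabp7 averaged 1854 ± 676 CPM in the ONL and 292 ± 64.8 CPM in the core (SD, n = 3 each), with a log2 fold change of 2.81 ± 0.24 (SE) and an adjusted p of 9.20e-29. Apod averaged 1937 ± 432 CPM in the ONL and 324 ± 27.7 CPM in the core, with a log2 fold change of 2.73 ± 0.24 and an adjusted p of 7.15e-28. Mbp averaged 883 ± 699 CPM in the ONL and 2202 ± 881 CPM in the core, with a log2 fold change of -1.43 ± 0.20 and an adjusted p of 2.51e-10. All 3 calls held when any single section was left out.

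**Figure D2:**
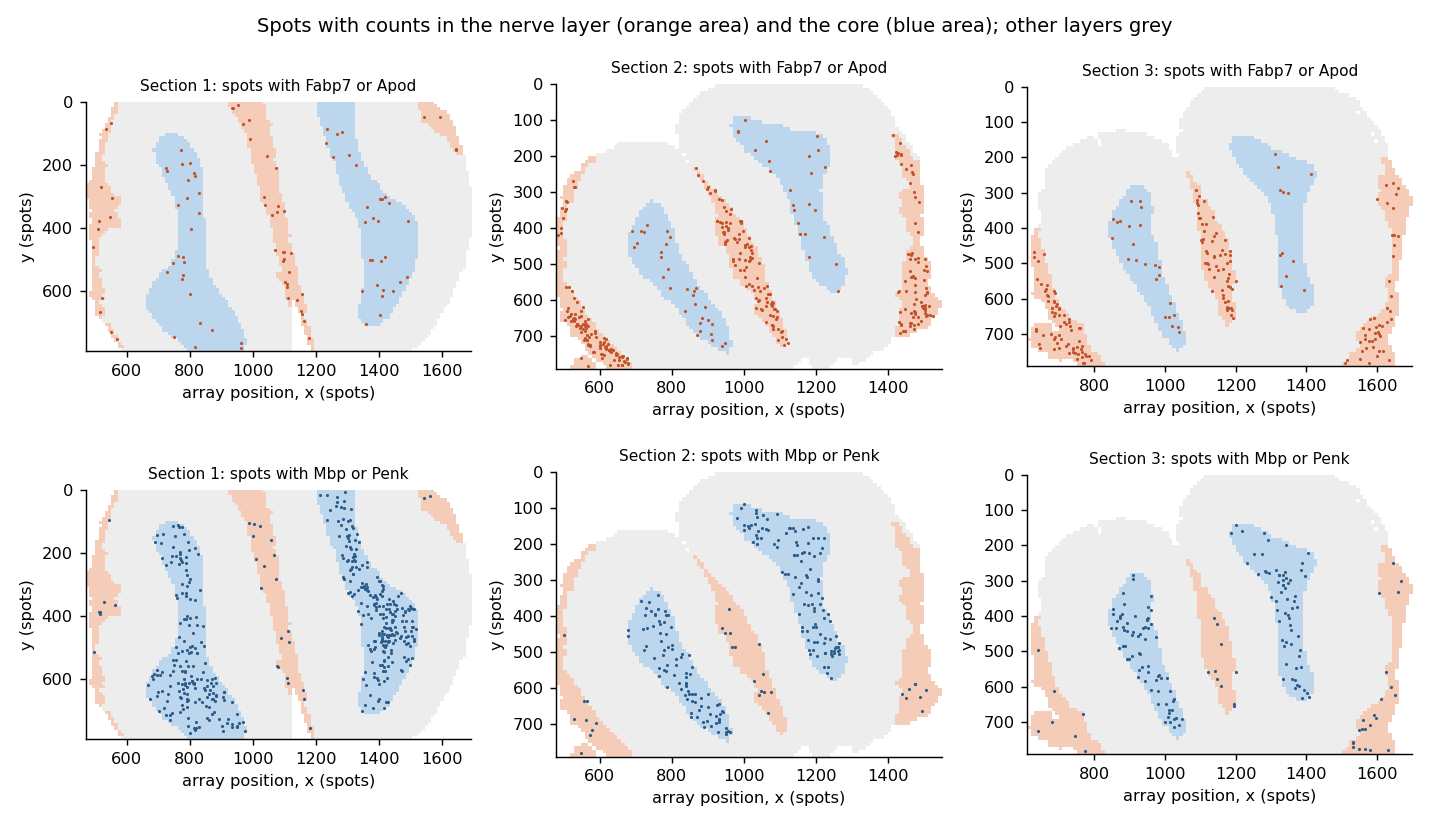
The ONL (orange area), the core (blue area) and the other layers (grey) of the 3 sections on the array's own axes, in spots, with dots for spots that caught Fabp7 or Apod (upper row) or Mbp or Penk (lower row). In sections 2 and 3 the Fabp7 and Apod dots lie densest in the ONL, in section 1 its shallow ONL has few dots of any kind, and Mbp and Penk dots lie mostly in the core.

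The start regions of 3 of these lipid and myelin genes are shown because they hold different sequence around the gene start. The windows run from 250 bases before to 50 bases after the start and come from RefSeq on GRCm38.p6. Capitals mark the letters ACAAAG or their reverse complement CTTTGT, a core that SOX factors bind, searched on both strands. Fabp7 is at chr10:57784673-57784972 (plus strand), Apod at chr16:31314759-31315058 (minus strand) and Mobp, a structural myelin protein described later, at chr9:120149492-120149791 (plus strand).
Fabp7: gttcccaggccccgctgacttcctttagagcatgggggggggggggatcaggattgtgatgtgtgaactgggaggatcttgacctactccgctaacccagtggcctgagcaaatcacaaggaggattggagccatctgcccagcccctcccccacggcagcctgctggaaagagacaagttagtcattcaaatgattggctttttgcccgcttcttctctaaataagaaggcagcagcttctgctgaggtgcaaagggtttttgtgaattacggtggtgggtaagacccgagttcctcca
Apod: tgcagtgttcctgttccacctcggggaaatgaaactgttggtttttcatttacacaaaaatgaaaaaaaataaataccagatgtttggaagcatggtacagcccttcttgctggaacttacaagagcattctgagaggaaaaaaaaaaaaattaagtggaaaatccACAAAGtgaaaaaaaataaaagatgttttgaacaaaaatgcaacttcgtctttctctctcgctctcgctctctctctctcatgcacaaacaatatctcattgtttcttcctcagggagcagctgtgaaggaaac
Mobp: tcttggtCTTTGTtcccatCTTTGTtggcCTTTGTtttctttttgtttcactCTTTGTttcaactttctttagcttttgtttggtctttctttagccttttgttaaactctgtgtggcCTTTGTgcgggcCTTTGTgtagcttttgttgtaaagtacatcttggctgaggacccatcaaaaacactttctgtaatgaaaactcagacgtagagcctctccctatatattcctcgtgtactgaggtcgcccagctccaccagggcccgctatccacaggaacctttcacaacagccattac

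The Mobp window held 6 matches, all written CTTTGT on the printed strand, and it was 1 window of 32851 with that many. The Apod window held 1 match, 84 bases before the start, and the Fabp7 window held none. At least 1 match stood in 16.0% of the 75 windows of genes higher in the ONL, in 18.8% of the 48 windows of genes lower in the ONL and in 18.7% of all windows. Of the 131 called genes 85 had a window. CCCNNGGG, a form of the EBF palindrome, stood in 18.7% of the windows of higher genes, 31.2% of those of lower genes and 13.7% of all. TATAAA, the TATA box, stood in 10.7%, 10.4% and 13.6%, and the NFI palindrome in 0%, 0% and 0.0365%. A match describes the letters only, and windows of 1 gene can overlap.

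Genes of the olfactory sensory axons had the highest median fold change of the lists, over the 4 of 20 that could be tested. Most of those 4 entered the test through the ONL alone, so that rank is partly set by the count filter. Omp, the marker protein of mature olfactory sensory neurons (chromosome 7, 98143359 to 98145502, mm10), had 258, 410.4 and 601 CPM in the ONL, against 0, 21.6 and 49.1 CPM in the core. These stand for 4, 29 and 33 counts in the ONL, against 0, 2 and 3 in the core. The groups did not overlap, and the log2 fold change was 4.31 ± 0.52 with an adjusted p of 1.08e-14. S100a5, a calcium-binding protein of odour-activated sensory neurons, had 773, 495 and 692 CPM in the ONL, against 76.7, 75.7 and 98.1 CPM in the core. Its log2 fold change was 3.04 ± 0.37 with an adjusted p of 8.74e-14. Gng13, the G protein gamma subunit of the odour receptor cascade, had 515, 339.6 and 164 CPM in the ONL, against 67.1, 75.7 and 131 CPM in the core. The log2 fold change was 1.95 ± 0.46 with an adjusted p of 0.000764. Calb2, the calcium buffer calretinin, which periglomerular cells also make, was 1.10 ± 0.33 higher on the log2 scale with an adjusted p of 0.0141. Every ONL value of these 4 genes was above every core value.

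Of the 20 sensory axon genes listed, these 4 had enough counts and all 4 were higher, with a median log2 fold change of 2.49. Omp, S100a5 and Gng13 passed the count filter through the ONL alone, so the count and the median support nothing by themselves. Genes of other lists also passed through 1 side alone. Kctd12, Npy, Igf2, Vtn and Reln did so through the ONL and Bcl11b through the core, so the same limit holds for those lists. List counts here and below are to be read beside the 5.33% of all tested genes that were higher and the 3.51% that were lower. The summed level of the 20 genes was 2769.5, 2533 and 2622 CPM in the ONL, against 689.9, 627 and 752 CPM in the core. Among the genes too low to test, Gnal, the olfactory G protein alpha subunit, had 2, 17 and 11 counts in the ONL, against 2, 1 and 2 in the core. Stoml3, a stomatin-like protein of the sensory cilia, had 2, 17 and 12 counts in the ONL, against 0, 3 and 0 in the core. Without section 2, Calb2 missed the threshold (adjusted p = 0.202) and Gng13 had too few counts to be tested. Without section 3 the adjusted p of Calb2 was 0.298, and Gng13 had a log2 fold change of 2.53. The number of list members called was 6 without section 1, 2 without section 2 and 5 without section 3.

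Axon transport and cytoskeleton genes did not move as 1 group. Kif5b, the heavy chain of the conventional kinesin motor, had 322, 2066 and 1657 CPM in the ONL, against 134, 649 and 474 CPM in the core. It was above its own core in each section, with a log2 fold change of 1.87 ± 0.24 and an adjusted p of 2.49e-12, while the ONL of section 1 was below the core of the other 2 sections. Map1b, a microtubule-binding protein of growing axons, was 0.68 ± 0.22 higher on the log2 scale (adjusted p = 0.0290). Map2, its counterpart in dendrites, had 708, 1033 and 1184 CPM in the ONL, against 719, 2368 and 1995 CPM in the core. The fitted change on the log2 scale was -0.68 ± 0.20 (adjusted p = 0.0131), and in section 1 both sides were level. Of 32 genes for microtubules, neurofilaments and motors, 23 were tested, 2 were higher, 1 was lower and the median was -0.26. Only Kif5b of these 3 held without any single section. The adjusted p of Map1b was 0.299 without section 2 and 0.431 without section 3, and that of Map2 was 0.724 and 0.4. With library sizes alone Map1b had an adjusted p of 0.181.

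Genes known from ensheathing glia were higher in the ONL, and so was Kctd12, which the lists hold under periglomerular cells and GABA receptors. Kctd12, an auxiliary subunit of GABA-B receptors, had 515, 1019 and 965 CPM in the ONL, against 57.5, 75.7 and 131 CPM in the core. It had the second steepest log2 fold change, 3.43 ± 0.35, with an adjusted p of 1.64e-19. Npy, neuropeptide Y, which ensheathing glia make and which some interneurons also make, had 451, 269 and 200.3 CPM in the ONL, against 86.2, 10.8 and 32.7 CPM in the core. Npy rested on 7, 19 and 11 counts in the ONL, against 9, 1 and 2 in the core. Its log2 fold change was 2.99 ± 0.61 with an adjusted p of 4.44e-05. Both genes were separate between the groups. Of 20 ensheathing glia genes listed, 7 were tested and 5 were higher, with a median of 1.36, among them Fabp7, Apod, Npy and S100b. S100b, a calcium-binding protein that astrocytes share, had 258, 325 and 419 CPM in the ONL, against 211, 173 and 147 CPM in the core (log2 fold change 1.12 ± 0.37, adjusted p = 0.0287). The summed list gave 6698, 8902 and 8158 CPM in the ONL, against 3488, 2811 and 2894 CPM in the core. Npy missed the threshold without section 2 (adjusted p = 0.0765) and had a log2 fold change of 3.65 without section 1. S100b missed it without section 2 (0.221), without section 3 (0.604) and with library sizes alone (0.0732). The number of members called was 6 without section 1, 2 without section 2 and 3 without section 3.

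**Figure D3:**
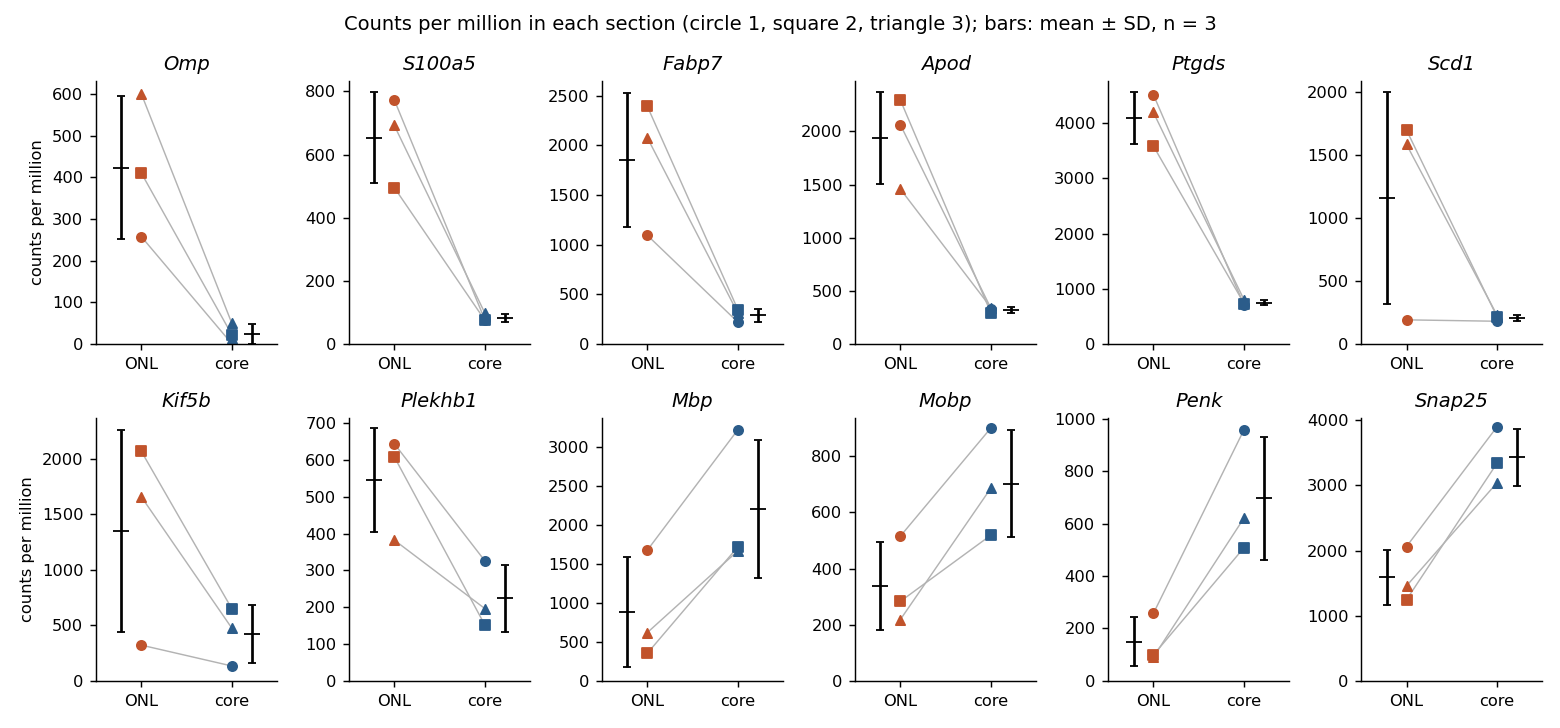
CPM of 12 named genes in the ONL, left, and the core, right, with 1 symbol a section, a line joining the 2 sides of each section, and bars for the mean ± SD (n = 3). Omp, S100a5, Fabp7, Apod and Ptgds are higher in the ONL in all 3 sections, as is Plekhb1, while Mbp, Mobp, Penk and Snap25 are lower.

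Myelin genes went both ways. Plekhb1, a membrane-associated adaptor found in glia and photoreceptors, had 644, 609 and 382 CPM in the ONL, against 326, 151 and 196 CPM in the core, with no overlap. The fitted change on the log2 scale was 1.51 ± 0.32 (adjusted p = 8.99e-05). Mobp, the myelin protein whose start region is printed above, had 515, 283 and 219 CPM in the ONL, against 901, 519 and 687 CPM in the core. Its groups did not overlap, and its log2 fold change was -0.96 ± 0.31 (adjusted p = 0.0285).

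Of 24 oligodendrocyte genes listed, 11 were tested, 2 were lower (Mbp and Mobp), 2 were higher (Plekhb1 among them), and the median was 0.00. Their summed level was 7665, 7373 and 7575 CPM in the ONL, against 11239.5, 7277 and 7097 CPM in the core, so section 1 differed from the other 2. Low-count myelin genes had their highest counts in the core of section 1, which was also the deepest of the 6 sums. It held 104364 counts, against 15526 in the ONL of that section, so the raw counts that follow do not compare levels. Cnp, a myelin enzyme, had 3, 6 and 2 counts in the ONL, against 57, 7 and 8 in the core. Mag, an adhesion protein of the inner myelin wrap, had 1, 1 and 2 counts in the ONL, against 18, 3 and 6 in the core. Mog, on the outer myelin surface, had 1, 2 and 1 counts in the ONL, against 12, 1 and 0 in the core. The word myelinated for the core thus held for Mbp and Mobp among the tested genes and not for the list as a whole. Of Mbp, Mobp and Plekhb1, only Mbp held without any single section. Without section 2 the adjusted p was 0.168 for Plekhb1 and 0.103 for Mobp. Without section 3 it was 0.0903 for Plekhb1 and 0.555 for Mobp. The count of higher members was 4 without section 1 and 0 without either of the other sections, and of the lower members 2, 1 and 1.

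Several lipid genes, some of which the glial lists also hold, were higher in the ONL. Ptgds, prostaglandin D synthase, a lipid-carrying secreted enzyme of meninges and glia, had 4509, 3580.5 and 4188 CPM in the ONL, against 709, 735 and 801 CPM in the core. It averaged 4092 ± 471 CPM in the ONL and 749 ± 47.5 CPM in the core, with a log2 fold change of 2.56 ± 0.17 and the smallest adjusted p of all tested genes, 1.00e-48. Apoe, the main lipoprotein of brain glia, had 6119, 3892 and 3587 CPM in the ONL, against 3191, 2130.2 and 2502 CPM in the core. Its log2 fold change was 0.91 ± 0.13 (adjusted p = 3.59e-10). Neither gene's groups overlapped. Abca8a, a lipid transporter of the ABC family, had 4, 17 and 10 counts in the ONL, against 3, 1 and 3 in the core, and a log2 fold change of 3.10 ± 0.78 (adjusted p = 0.00190). Of 13 lipid carrier genes, 7 were tested, 4 were higher and the median was 0.91.

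Scd1, the desaturase that makes monounsaturated fatty acids, had 193, 1698 and 1584 CPM in the ONL, against 182, 216 and 229 CPM in the core. Sections 2 and 3 differed widely between the sides and section 1 hardly did, on 3 counts in its ONL, against 19 in its core. The ONL value of Scd1 in section 1 is at the 193 CPM that a gene at 0 counts can still have there. The log2 fold change was 2.63 ± 0.28 (adjusted p = 5.43e-18). Elovl5, which lengthens unsaturated fatty acids, had 322, 226 and 182 CPM in the ONL, against 67.1, 32.4 and 49.1 CPM in the core (log2 fold change 2.41 ± 0.66, adjusted p = 0.00536). Acsbg1, which activates long-chain fatty acids, had 515, 467 and 401 CPM in the ONL, against 201, 173 and 179.9 CPM in the core (log2 fold change 1.46 ± 0.35, adjusted p = 0.000707). Both were separate between the groups. Fasn, which builds palmitate, had 258, 410.4 and 455 CPM in the ONL, against 441, 119 and 131 CPM in the core (log2 fold change 1.18 ± 0.34, adjusted p = 0.00858). Section 1, whose ONL is shallow, went the other way for Fasn. Of 27 genes for fatty acid and sterol synthesis, 10 were tested, 6 were higher and the median was 0.91. The marker Fabp7 is counted among the higher genes of this list, of the lipid carriers and of the ensheathing glia. Scd1 held without any single section but missed the threshold with DESeq2 (adjusted p = 0.146), as did most called genes named here. Without section 2 the adjusted p was 0.395 for Abca8a, 0.314 for Elovl5, 0.0714 for Acsbg1 and 0.453 for Fasn. Without section 3 it was 0.129 for Acsbg1 and 0.658 for Fasn, while without section 1 the log2 fold change of Fasn was 1.94. The synthesis list had 6 members called without section 1, 2 without section 2 and 3 without section 3, while the carrier list kept 4 called in each case.

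Genes that astrocytes share were higher by less. Glul, glutamine synthetase, had 1417, 2349 and 2568 CPM in the ONL, against 1255, 1589.6 and 1455 CPM in the core (log2 fold change 0.73 ± 0.17, adjusted p = 0.000627). Gja1, the gap junction protein connexin 43, had 193, 439 and 237 CPM in the ONL, against 76.7, 129.8 and 147 CPM in the core (log2 fold change 1.51 ± 0.40, adjusted p = 0.00359). Gja1 rested on 3, 31 and 13 counts in the ONL, against 8, 12 and 9 in the core. Of 20 astrocyte genes, 18 were tested, 6 were higher, none was lower and the median was 0.59. Without section 2 the adjusted p was 0.155 for Glul and 0.658 for Gja1. Without section 3 it was 0.573 for Glul and 0.112 for Gja1. The number of astrocyte genes called was 8 without section 1, 2 without section 2 and 1 without section 3.

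A pair of insulin-like growth factor genes was higher. Igfbp5, a secreted binding protein that controls access to the receptor, had 322, 1203 and 1293 CPM in the ONL, against 144, 184 and 131 CPM in the core. The log2 fold change was 2.75 ± 0.32 (adjusted p = 8.63e-16). Igf2, the growth factor itself, which meninges and vessels make, had 193, 255 and 255 CPM in the ONL, against 9.58, 32.4 and 49.1 CPM in the core. The fitted change on the log2 scale was 3.06 ± 0.73 (adjusted p = 0.000737). Neither gene overlapped between the groups, but Igf2 had only 3, 18 and 14 counts in the ONL, against 1, 3 and 3 in the core. Its ONL value in section 1 is at the 193 CPM that a gene at 0 counts can still have there. Of 10 genes of this system 4 were tested and these 2 were called, while Igfbp2 (adjusted p = 0.336) and the receptor gene Igf1r did not pass. Igf2 missed the threshold without section 2 (adjusted p = 0.239). The number called was then 1, against 3 without section 3.

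Markers of meninges, vessels and blood moved with the ONL, which is the outer surface of the bulb, and their part in the other differences was not tested. Summed over 17 meningeal genes the level was 6569.6, 6213 and 6373 CPM in the ONL, against 1571, 1676 and 1782 CPM in the core. Ptgds, which glia also make, gave most of that sum in the ONL, and it and Igf2 were the 2 called of 4 tested. Vtn, vitronectin, a mural cell gene, had 451, 368 and 437 CPM in the ONL, against 95.8, 21.6 and 131 CPM in the core, with a log2 fold change of 2.57 ± 0.41 (adjusted p = 2.35e-08). It was the 1 called of 3 tested vessel genes, whose list summed to 3671, 2491 and 3241 CPM in the ONL, against 2098, 1449 and 1521 CPM in the core. Hbb-bs, a beta globin of red cells, had 1546, 976 and 1056 CPM in the ONL, against 297, 487 and 736 CPM in the core, with a log2 fold change of 1.31 ± 0.25 (adjusted p = 7.45e-06). Hba-a2 and Hbb-bt were also higher, by 1.62 ± 0.29 (adjusted p = 1.12e-06) and 1.34 ± 0.44 (0.0320), though globin copies are nearly identical and reads may have been split between them. Of the 6 red cell genes 5 were tested and these 3 were higher, while Hba-a1, another globin gene, did not pass. The 6 genes summed to 3993, 2335 and 2440.1 CPM in the ONL, against 958, 1449 and 1635 CPM in the core. Hba-a2 missed the threshold without section 3 (adjusted p = 0.0858) and had a log2 fold change of 2.26 without section 2, and Hbb-bt without section 1 (0.14), 2 (0.55) or 3 (0.0948, log2 fold change 2.02). Of 18 microglial genes only 2 could be tested and neither was called.

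Some neuronal genes of the glomerular layer, the next layer inwards, were also higher in the ONL. Reln, the secreted protein reelin of mitral, tufted and periglomerular cells, had 451, 212 and 164 CPM in the ONL, against 134, 32.4 and 98.1 CPM in the core (log2 fold change 1.79 ± 0.54, adjusted p = 0.0148). Uchl1, a neuronal ubiquitin hydrolase, had 515, 226 and 455 CPM in the ONL, against 201, 141 and 114 CPM in the core (log2 fold change 1.44 ± 0.37, adjusted p = 0.00322). Cdhr1, a cadherin of mitral and tufted cells, had 708, 269 and 255 CPM in the ONL, against 211, 195 and 131 CPM in the core (log2 fold change 1.14 ± 0.37, adjusted p = 0.0285). All 3 were separate between the groups. Of 20 mitral and tufted genes, 8 were tested and 4 were higher, with a median of 1.03. Of 14 periglomerular genes only Calb2, Cck and Kctd12 were tested, and all 3 were higher, where 5.33% of all tested genes were. Kctd12 passed the count filter through the ONL alone, so this count supports nothing by itself. Calb2 is also in the sensory axon list and Kctd12 in that of GABA receptors. Spots within 5 array positions of another region made up 22.6%, 21.1% and 17.3% of the ONL, against 10.3%, 14.5% and 15.5% of the core. With those spots left out, only 1103 genes could be tested, of which 61 were higher and 35 lower. Of 63 called named genes tested then, 13 no longer passed. The calls of Reln, Uchl1 and Cdhr1 were thin: without section 3 the adjusted p was 0.0903, 0.521 and 0.440. Without section 2 Reln had too few counts and Cdhr1 was at 0.0637, and without section 1 Cdhr1 was at 0.247. The mitral and tufted list had 3 members called without section 1, 1 without section 2 and 0 without section 3, and the periglomerular list 2, 2 and 1.

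**Figure D4:**
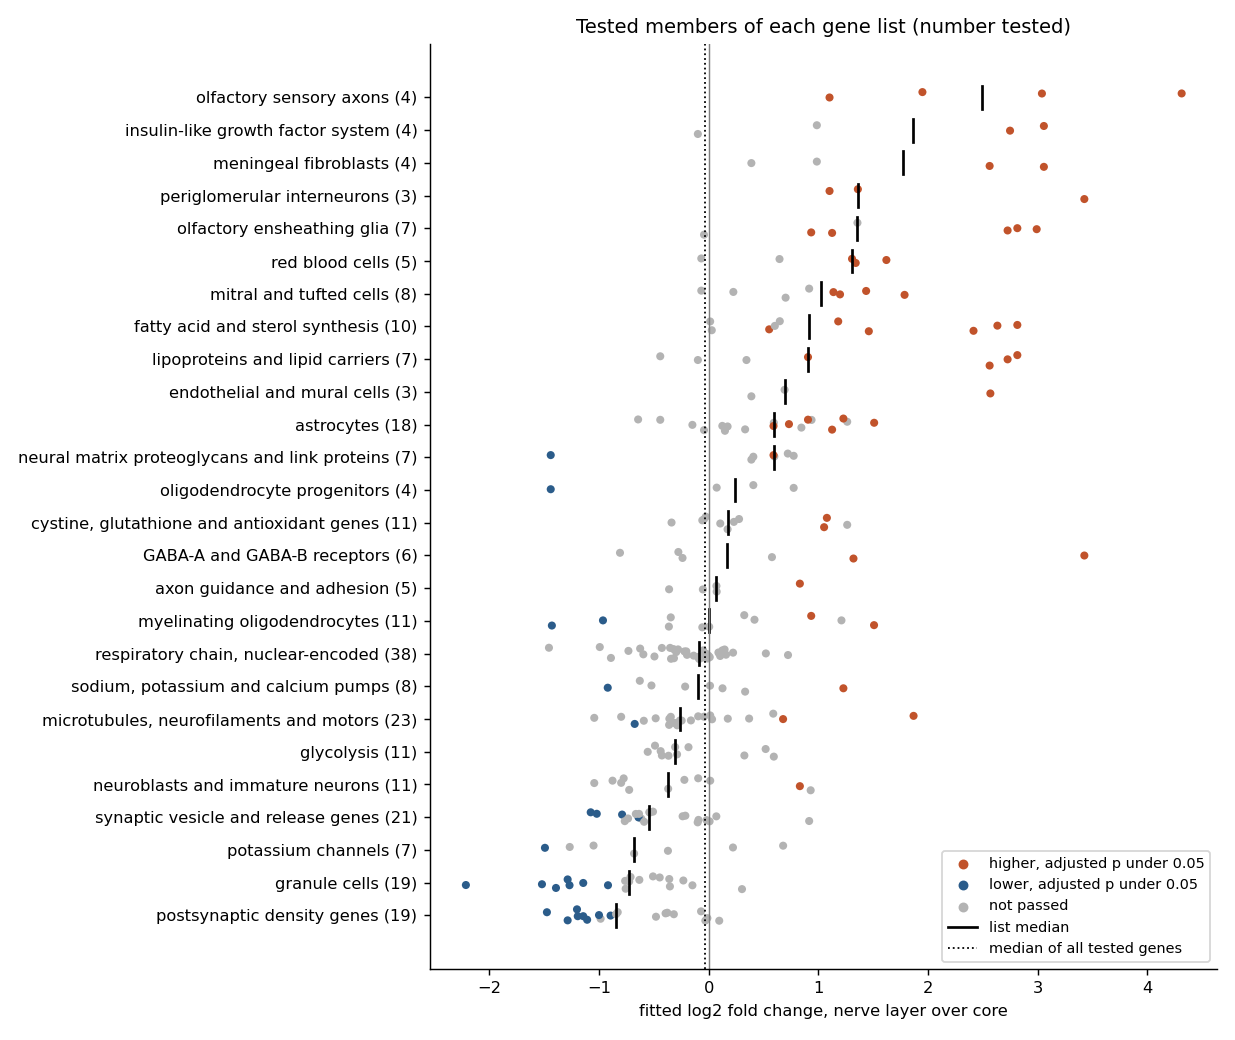
Tested members of the gene lists by fitted log2 fold change of ONL over core, 1 point a gene, coloured where it passed, with a bar at the list median and a dotted line at the median of all tested genes, -0.03. Sensory axon genes lie to the right of 0 with a median of 2.49, granule cell and postsynaptic genes lie mostly to the left with medians of -0.73 and -0.85, and oligodendrocyte genes lie on both sides.

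Of the 52 genes lower in the ONL, 23 were in a list, mostly those of granule cells, the postsynaptic density and vesicle release. Penk, the enkephalin precursor made by granule cells, had 258, 99.1 and 91.0 CPM in the ONL, against 958, 508 and 621 CPM in the core. It averaged 149 ± 93.9 CPM in the ONL and 696 ± 234 CPM in the core. Its log2 fold change, -2.22 ± 0.38, was the lowest of all tested genes, with an adjusted p of 4.20e-07, and the call held without any single section. Cpne4, a calcium-dependent membrane-binding protein of the copine family, had 322, 255 and 309.6 CPM in the ONL, against 546, 973 and 1079 CPM in the core (log2 fold change -1.52 ± 0.31, adjusted p = 2.67e-05). Pcp4, a small calmodulin-binding protein of granule cells, had 1095, 495 and 528 CPM in the ONL, against 1658, 1276 and 1112 CPM in the core (log2 fold change -0.92 ± 0.23, adjusted p = 0.00190). In all 3 genes every ONL value was below every core value. Bcl11b, a zinc finger factor, had 64.4, 84.9 and 109 CPM in the ONL, against 182, 227 and 376 CPM in the core (log2 fold change -1.39 ± 0.46, adjusted p = 0.0320).

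Of 23 granule cell genes, 19 were tested, 7 were lower, none was higher and the median was -0.73. The list summed to 11979.9, 8166 and 8121 CPM in the ONL, against 14507, 15496 and 14505 CPM in the core. Gad1, which makes GABA, was not among the lower genes: it had 2254, 1189 and 1311 CPM in the ONL, against 2165, 1665 and 1668 CPM in the core (log2 fold change -0.15 ± 0.18, adjusted p = 0.738). Meis2, a homeobox factor of granule cells and their precursors, had 193, 637 and 637 CPM in the ONL, against 383, 1395 and 998 CPM in the core (log2 fold change -0.73 ± 0.26, adjusted p = 0.0625). Without section 2, Pcp4 was at 0.237 and Bcl11b at 0.202. Without section 3 it was 0.0903 for Cpne4, 0.129 for Pcp4 and 0.545 for Bcl11b. The number of granule cell genes called was 12 without section 1, 3 without section 2 and 1 without section 3.

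Postsynaptic genes gave the most lower genes of the 30 lists, 8 of 19 tested among 31 listed, with a median of -0.85 and none higher. Nrgn, neurogranin, which holds calmodulin at the postsynaptic membrane, had 708, 212 and 164 CPM in the ONL, against 1121, 692 and 883 CPM in the core. Its log2 fold change was -1.48 ± 0.31 (adjusted p = 5.36e-05), and only the ONL of section 1 reached the range of the core. Camk2n1, an inhibitor of the kinase CaMKII, had 258, 509 and 583 CPM in the ONL, against 1025, 1222 and 1243 CPM in the core (log2 fold change -1.11 ± 0.25, adjusted p = 0.000319). Camk2a, a catalytic subunit of that kinase, had 129, 368 and 237 CPM in the ONL, against 374, 714 and 834 CPM in the core (log2 fold change -1.14 ± 0.32, adjusted p = 0.00791). Both were separate between the groups. Grin2b, a subunit of NMDA receptors, had 193, 325 and 164 CPM in the ONL, against 182, 779 and 687 CPM in the core (log2 fold change -1.20 ± 0.34, adjusted p = 0.00742). In section 1 both sides were level, with the ONL at the 193 CPM that a gene at 0 counts can still have there. Without section 3 the adjusted p was 0.168 for Nrgn, 0.0773 for Camk2n1, 0.521 for Camk2a and 0.575 for Grin2b, and without section 2 it was 0.0694 for Grin2b. The number called was 11 without section 1, 3 without section 2 and 0 without section 3.

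Release machinery was lower in part. Snap25, a SNARE protein of vesicle fusion, had 2061, 1245 and 1457 CPM in the ONL, against 3899.8, 3341 and 3042 CPM in the core. The groups were separate, and the log2 fold change was -1.02 ± 0.16 (adjusted p = 5.01e-09), a call that held without any single section. Cplx2, complexin 2, which clamps fusion, had 0, 13 and 12 counts in the ONL, against 39, 39 and 24 in the core (log2 fold change -1.08 ± 0.37, adjusted p = 0.0381). Vamp2, the vesicle SNARE, had 1610.2, 594 and 747 CPM in the ONL, against 2654, 1081 and 1226 CPM in the core (log2 fold change -0.64 ± 0.21, adjusted p = 0.0272). Vamp2 was lower in the ONL of each section although its groups overlapped. Of 29 vesicle genes, 21 were tested, 4 were lower and the median was -0.54. Without section 1, 2 or 3 the adjusted p of Cplx2 was 0.104, 0.244 and 0.370. That of Vamp2 was 0.272 without section 2 and 0.251 without section 3. The number called was 6 without section 1 and 1 without either other section.

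Further genes lay among the 12 steepest on the lower side. Scn3a, a voltage-gated sodium channel, had 0, 5 and 4 counts in the ONL, against 24, 23 and 17 in the core (log2 fold change -1.84 ± 0.52, adjusted p = 0.00781). Kcnh3, a potassium channel, had 1, 8 and 5 counts in the ONL, against 37, 27 and 20 in the core (log2 fold change -1.49 ± 0.44, adjusted p = 0.0113). Rbfox1, a neuronal splicing factor, had 193, 156 and 182 CPM in the ONL, against 316, 616 and 654 CPM in the core (log2 fold change -1.57 ± 0.36, adjusted p = 0.000320). All 3 were separate between the groups. Celf5, an RNA-binding protein, Gda, guanine deaminase, and Adgrb2, an adhesion receptor, fell by 1.52, 1.84 and 1.62 on the log2 scale, with adjusted p of 0.00791, 0.000320 and 0.0144, and were separate too. Camkv, a kinase-like protein of synaptic vesicles, fell by 1.60 (adjusted p = 0.00691), Zer1, part of a ubiquitin ligase, by 1.69 (0.0320), H1f0, a linker histone, by 1.66 (0.0141), and the gene model Gm47283 by 1.68 (0.0212). None of these 10 genes passed without section 3, where their adjusted p ran from 0.0903 for Gda to 0.491 for Gm47283. Without section 2 only Camkv of the 10 passed, and the others ran from 0.0637 for Rbfox1 to 0.282 for Zer1.

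The names of the core regions were set against the cells they refer to. Of 12 ependymal genes none had enough counts to test, and their summed level was 0, 84.9 and 91.0 CPM in the ONL, against 28.7, 32.4 and 32.7 CPM in the core, on 0, 6 and 5 counts against 3, 3 and 2. So few counts do not allow a comparison of the sides. Of 22 genes of neuroblasts and immature neurons, 11 were tested, none was lower in the ONL and Ncam1, a cell adhesion molecule, was higher (log2 fold change 0.83 ± 0.29, adjusted p = 0.0479). Their summed level was 3478, 3312 and 3715 CPM in the ONL, against 3794, 4736 and 4529.8 CPM in the core, with the ONL below in every section. The adjusted p of Ncam1 was 0.472 without section 2, 0.746 without section 3 and 0.185 with library sizes alone.

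E and RMS differed in Mbp. In RMS it stood at 6448, 1937 and 6181 CPM in sections 1 to 3, on 105, 10 and 9 counts, against 2623, 1706 and 1558 CPM in E. Mbp was higher in RMS than in E in every section, on few counts in sections 2 and 3. With E alone as the core, 78 genes were higher and 54 lower in the ONL, and 130 calls were shared with the pooled core. With RMS alone only 160 genes could be tested, 9 were higher and 2 lower. Against RMS alone Mbp had a log2 fold change of -2.12.

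Across all 9 regions, pooled over sections, the axon and ensheathing genes declined within the outer layers. Omp had 468 CPM in the ONL, 178 CPM in the glomerular layer and 57.8 CPM in the external plexiform layer. Fabp7 had 2126, 891 and 502 CPM in the same layers, and Apod 1942, 858 and 339 CPM. Mbp had 602 CPM in the ONL, 891 CPM in the glomerular layer, 1825 CPM in the internal plexiform layer, 2012 CPM in E and 5414 CPM in RMS. Plekhb1 was high at both ends, with 524 CPM in the ONL, 53.5 CPM in the external granule cell layer, 204 CPM in E and 524 CPM in RMS. Its RMS level rests on few counts: E and RMS together held 34, 14 and 12 Plekhb1 counts in sections 1 to 3. Penk had 113 CPM in the ONL, 503 CPM in the internal granule cell layer, 715 CPM in E and 742 CPM in RMS. By section, Penk had 859.7, 387 and 687 CPM in RMS, on 14, 2 and 1 counts, against 976, 515 and 619.8 CPM in E, so RMS was the higher only in section 3, on 1 count. These pooled levels carry no error, and sections weigh differently in them: section 1 gave 16285 of the RMS counts and sections 2 and 3 gave 5162 and 1456, whereas in the ONL section 1 gave the fewest.

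**Figure D5:**
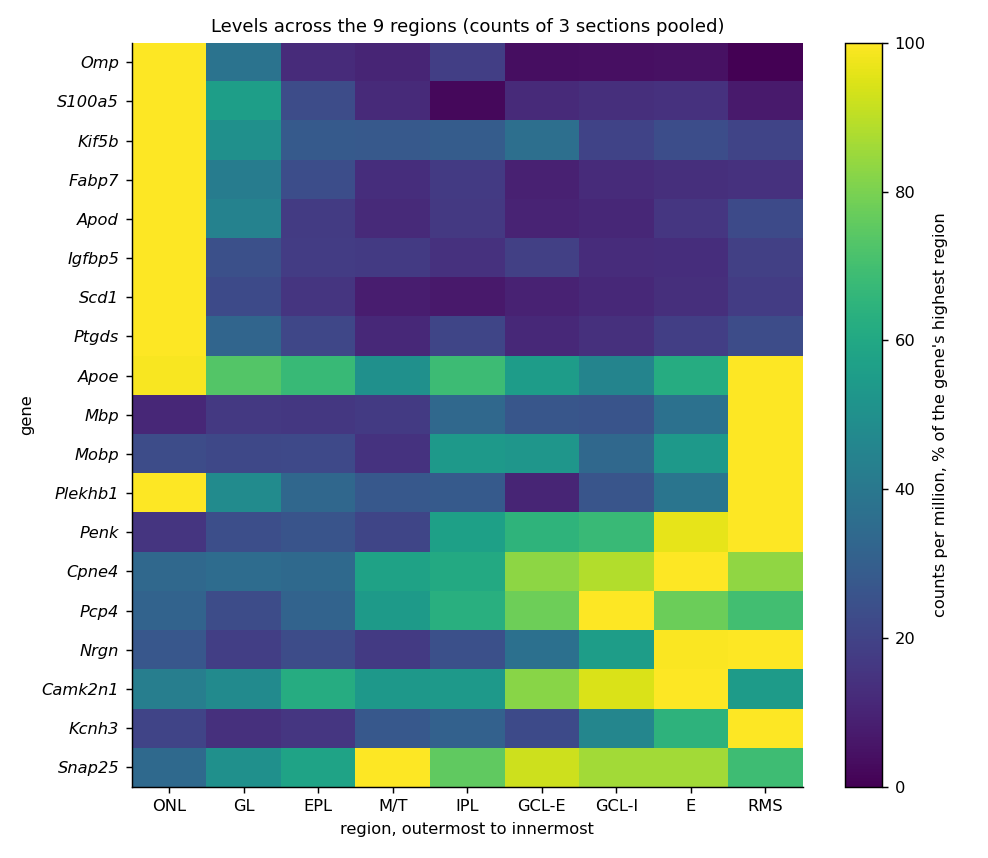
Colour gives CPM pooled over the 3 sections as a percent of each gene's highest region, for named genes (rows) in the 9 regions from the ONL at the left to RMS at the right. Omp, Fabp7 and Apod peak in the ONL, Mbp peaks in RMS, and Penk has about the same pooled level in E and RMS. Plekhb1 is high at both ends, on few counts in RMS. The regions between are the glomerular (GL), external plexiform (EPL), mitral (M/T), internal plexiform (IPL), external granule cell (GCL-E) and internal granule cell (GCL-I) layers.

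Transcripts close to mitochondrial RNA also differed. Nuclear-encoded respiratory chain genes did not: of 38 tested none was called, with a median of -0.09. The 9 tested genes that match a mitochondrial transcript, and could take reads from it, were all higher in the ONL. Lars2, the mitochondrial leucyl-tRNA synthetase, was not among these matches. It had 129, 21780.0 and 18501 CPM in the ONL, against 76.7, 9754 and 8242 CPM in the core (log2 fold change 1.37 ± 0.10, adjusted p = 4.69e-38). Both sums of section 1 were far below all sums of the other sections. With Lars2, the mitochondria-like genes and genes named as miRNAs left out, 66 genes were higher and 51 lower, and 117 calls were shared. Glycolysis genes had no call among 11 tested, with a median of -0.31.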

How the data were processed

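The authors deposited raw transcript counts per spot and gene, with a table giving each spot a pixel position and a region, per the file headers. The submitters' processing notes name mm10 as build. The aligner, the counter, its strand setting and whether counts are unique molecules are not given in the sources used here. Positions and biotypes came from GENCODE M21, where 19601 of 19640 symbols (99.8%) were found.

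Each spot took its region through its pixel position, which matched 100% of entries. Counts without a gene name (112, 497 and 405, or 0.0325%, 0.0764% and 0.0801%) were left out, as were spots with no named region. Section totals were 344372, 650890 and 505710 counts, which limits precision. Counts were summed into 6 sums, ONL and core of each section. The test was edgeR 4.0.16 (R 4.3.3; quasi-likelihood, TMM, filterByExpr with a minimum count of 10), with section as a block. The sides of a section are the same tissue on the same array, and their deviations correlated at 0.355 to 0.617, against 0.417 and 0.424 between sections 2 and 3. The prior degrees of freedom came out infinite, so all genes share the trend in spread. CPM means and SDs are over 3 sections.

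The members and the 30 gene lists were chosen with earlier results of these data known, and no list is independent support. Named genes were the 12 with the largest fold change in each direction among called genes with at least 30 counts on the higher side and the same direction in each section, the markers, and up to 4 members of each list by counts together with its called members. Mitochondria-like genes matched a mitochondrial transcript at 95% identity over 100 bases or more (blastn 2.17.0). Alternatives used RLE scaling, other filters, DESeq2 1.42.0 and other sets of spots or sections. Some genes of the lists are not reported here.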

Additional observations from a re-analysis of the deposited data

Results flagged for a closer look

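Counts were also recorded on spots that the deposited tables give no region. There were 42 such counts in section 1, 5699 in section 2 and 3435 in section 3. They entered no comparison and there are no control spots to set them against. Their part in the results was not tested.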

How the results depend on the processing

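The main test called 79 genes higher and 52 lower in the ONL. Leaving out 1 section gave 35 to 128 higher and 4 to 95 lower genes. Without the replicate block, that is without section in the model, 7 were higher and 1 lower, all 8 among the main calls. Of 72 called named genes, 64 then no longer passed. With RMS alone as the core 9 were higher and 2 lower, and only 160 genes could be tested. DESeq2 called 36 higher and 6 lower, and 46 of 67 called named genes no longer passed. Under the other 11 alternatives both counts stayed within 1.5 times. A count can hide which genes pass: with no filter on low counts 86 of the 131 main calls were shared, and 24 of 72 called named genes no longer passed. With RMS alone 3 named genes changed sign: Gad1 had a log2 fold change of 0.67, Vamp2 of 0.30 and Map2 of 0.0057, of which the cause was not tested. Leaving out RMS of section 3, chosen after seeing the data, gave 80 higher and 52 lower and shared all 131 calls. Limits are the 15526 counts of the ONL in section 1, the 1456 counts of RMS in section 3, which leave most listed genes below the filter, and 3 sections of unstated animals.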
